A study of Mus musculus with 6 samples.

Results

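The canonical Wnt axis of day 4 embryoid bodies (D4 EBs) was examined through 10 genes taken by symbol from the 15266 genes of the mRNA-seq table. They were 5 Wnt ligands of the primitive streak (*Wnt3*, *Wnt3a*, *Wnt5a*, *Wnt5b* and *Wnt8a*) and 5 direct targets of β-catenin (*Axin2*, *Sp5*, *Sp8*, *Lef1* and *Dkk1*). All 10 were listed, and 9 passed the filter on low counts, the exception being *Wnt3a*. EBs are aggregates of mouse embryonic stem cells (mESCs) that differentiate once LIF is withdrawn and pass through a state resembling gastrulation. Both lines were derived from W9.5 mESCs and differentiated in serum for 4 days. EVX1-Δfs clone 14 carries frameshift mutations in both alleles of the *Evx1* homeodomain exon and still transcribes the locus. 'Del#3' carries the 2.6 kb deletion Evx1/Evx1asΔ2.6kb. It removes the promoter that *Evx1* shares with the antisense lncRNA *Evx1as*, and also exons of *Evx1as*. Both lines were therefore compromised for *Evx1*, and the comparison asked whether loss of *Evx1as* adds anything to loss of EVX1. There were 3 libraries of each line, each line was represented by the cells of 1 clone or deletion line, and no unedited library was used here. Differentiations compared side by side were set up on the same day, and equal replicate numbers are taken here to mark equal days.

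Secreted Wnt proteins bind Frizzled receptors together with LRP co-receptors, which stops the destruction complex from degrading β-catenin. β-catenin then enters the nucleus and acts with TCF/LEF factors on target genes, several of which encode inhibitors of the same pathway. In the mouse embryo Wnt3 is needed for the primitive streak to form, while Wnt5a and Wnt5b are best known for signalling that does not run through β-catenin. The RNA of a whole EB averages over its cells, so fewer cells of a type and less RNA per cell cannot be told apart.

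Recovered reads per library ranged from 9024579 to 15699124, and replicate 1 was the deepest library of each line. *Evx1* had 4023, 3132 and 2582 reads in EVX1-Δfs against 48, 28 and 31 in 'Del#3', and *Evx1as* had 879, 588 and 571 against 21, 22 and 30, as the 2 genotypes call for. Primitive streak markers were present in every library, with a summed level of 562 to 745 RPM (reads scaled to an equal library size) in EVX1-Δfs and 466 to 699 RPM in 'Del#3'. Neurectoderm markers summed to 7.71 to 14.5 RPM and 12.3 to 16.2 RPM. Visceral endoderm markers, 6 of 7 of them listed, summed to 29.2 RPM in 'Del#3' replicate 1 and to between 5.66 and 8.94 RPM in the other 5 libraries. Their part in the results was not tested.

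Levels between genes were compared as RPKM, in which reads are divided by exon length and library size, as means ± SD over the 6 libraries. *Sp5*, a zinc finger repressor induced directly by β-catenin, was the highest of the 10 genes at 41.3 ± 6.47 RPKM. *Wnt3* was the highest of the 15 listed Wnt ligands at 20.5 ± 3.14 RPKM. *Wnt5b* (12.5 ± 3.16), *Dkk1* (12.1 ± 2.22), *Axin2* (10.6 ± 2.6) and *Wnt8a* (9.71 ± 1.55 RPKM) formed a middle group in which the range of each gene overlapped that of the next. *Wnt3* was above *Wnt5b* in all 6 libraries, although their ranges also overlapped. *Lef1* (4.43 ± 1.75) and *Wnt5a* (3.29 ± 1.25 RPKM) lay below them and overlapped each other. *Sp8* reached 1.40 ± 0.232 RPKM and *Wnt3a* 0.240 ± 0.0993 RPKM. Between neighbours in this order, the ranges did not overlap for *Sp5* over *Wnt3*, *Wnt8a* over *Lef1*, *Wnt5a* over *Sp8* and *Sp8* over *Wnt3a*. The length used mattered for 2 genes, since with the longest annotated transcript in place of all exons *Lef1* was at 10.5 RPKM and *Axin2* at 13.7 RPKM. *Lef1* was then above *Wnt8a* in the mean and their ranges overlapped, so the gap between them depends on that length.

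*Wnt3* made up 32.7% of the summed RPKM of the listed Wnt ligands on average, with 28.6% in the lowest library and 40.0% in the highest. *Wnt5b* made up 19.8% and *Wnt8a* 15.5%. *Wnt5a* accounted for 5.31%, behind *Wnt2*, *Wnt2b* and *Wnt11*, although its range overlapped theirs. *Wnt3a* accounted for 0.381%. The ligand transcripts were thus mostly of *Wnt3*, *Wnt5b* and *Wnt8a* in both lines.

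**Figure D1:**
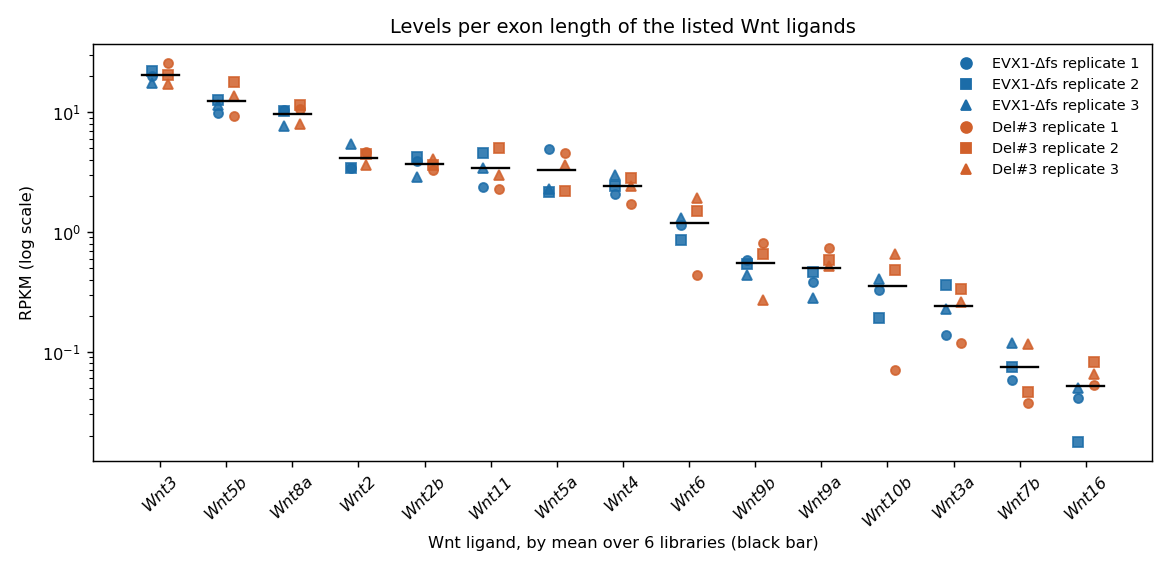
Levels of the 15 listed Wnt ligands in RPKM on a log axis, with 1 point per library, coloured by line, and a bar at the mean of the 6 libraries. *Wnt3* (20.5 RPKM), *Wnt5b* (12.5 RPKM) and *Wnt8a* (9.71 RPKM) stand at the top, and *Wnt3a* (0.240 RPKM) near the bottom.

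Promoter sequence, the 250 bases upstream of each RefSeq start, was at hand for 8 of the 10 genes in 15 windows, all of which were matched in NCBIM37, the build also called mm9. The core letters bound by TCF/LEF factors, CTTTGAT or CTTTGAA, were searched on both strands. CTTTGAT was in 3.21% and CTTTGAA in 4.46% of all 32851 RefSeq windows of this length. They were found in 4 of the 15 windows, 1 each of *Sp5*, *Wnt5b*, *Dkk1* and *Sp8*. The share of all windows with either of them was not computed, and some of the 15 windows belong to the same gene or overlap. In the *Dkk1* window 169 of the 250 bases, and in that *Sp8* window 42, lie in annotated exons. A match is a description of letters, and binding was not measured. The windows of *Sp5*, the most abundant of the 10 genes, and of *Wnt5b* are shown because they hold the less common CTTTGAT, which is in capitals. In *Sp5* (chr2:70312730-70312979, plus strand) it begins 104 bases before the start, and in *Wnt5b* (chr6:119399405-119399654, minus strand) 71 bases before the start of one of its transcripts.
Sp5: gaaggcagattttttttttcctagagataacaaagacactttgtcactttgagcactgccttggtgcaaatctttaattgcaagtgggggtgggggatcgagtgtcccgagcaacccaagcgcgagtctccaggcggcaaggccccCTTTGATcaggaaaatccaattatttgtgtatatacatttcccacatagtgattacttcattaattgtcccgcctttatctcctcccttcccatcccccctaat
Wnt5b: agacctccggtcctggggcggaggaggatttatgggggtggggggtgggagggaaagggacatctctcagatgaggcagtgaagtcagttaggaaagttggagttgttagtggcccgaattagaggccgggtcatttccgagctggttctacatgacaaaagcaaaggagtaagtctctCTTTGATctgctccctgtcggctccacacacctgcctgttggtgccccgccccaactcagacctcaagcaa

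None of the 9 tested genes differed between the lines, and no unadjusted p was under 0.05 either (limma on log2 of the normalised count + 1, Benjamini-Hochberg adjustment over 12891 genes). Across all genes tested 0.0155% were called, namely *Evx1* and *Evx1as*, and 1.03% had an unadjusted p under 0.05, 0.83% with 'Del#3' higher and 0.202% with 'Del#3' lower. With replicate number as a block the 9 genes again gave no call and no unadjusted p under 0.05, where 0.0233% and 4.62% of all genes did. Log2 differences are given below as 'Del#3' minus EVX1-Δfs with a standard error (SE) and a 95% interval, normalised counts are in the order of replicates 1, 2 and 3, and the adjusted p of every one of the 9 was 1.00.

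*Wnt3* (chromosome 11: 103635464 to 103679271), the ligand required for streak formation, had 634, 715 and 612 normalised counts in EVX1-Δfs and 772, 714 and 554 in 'Del#3'. The lines overlapped, with 'Del#3' holding both the highest and the lowest library. The log2 difference was 0.047 (SE 0.23, interval -0.47 to 0.57).

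*Wnt3a* (chromosome 11: 59061535 to 59104254), a ligand of the later streak and tail bud, was barely detected. It had 3.96, 10.5 and 7.09 normalised counts in EVX1-Δfs and 3.19, 10.5 and 7.48 in 'Del#3', which came from 4 to 9 reads per library. It did not pass the filter on low counts and was tested only without that filter, where the log2 difference was -0.063 (SE 0.60, adjusted p = 1.00, limma).

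*Wnt8a* (chromosome 18: 34701967 to 34707927), a ligand of the posterior epiblast and early streak, had 189, 189 and 151 normalised counts in EVX1-Δfs and 180.1, 225 and 144 in 'Del#3'. Replicate 3 was the lowest library of both lines, and the lines overlapped. The log2 difference was 0.038 (SE 0.28, interval -0.59 to 0.67).

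*Wnt5a* (chromosome 14: 29317936 to 29340633), a ligand of posterior elongation and planar polarity, had 398, 177 and 201 normalised counts in EVX1-Δfs and 346, 195 and 299 in 'Del#3'. Replicate 1 was the highest and replicate 2 the lowest library of each line. The lines overlapped, with a log2 difference of 0.17 (SE 0.36, interval -0.63 to 0.97).

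*Wnt5b* (chromosome 6: 119382549 to 119494336), a close relative of *Wnt5a*, had 269, 349 and 339 normalised counts in EVX1-Δfs and 238, 534 and 376 in 'Del#3'. Its order was the opposite of that of *Wnt5a*, with replicate 1 the lowest and replicate 2 the highest library of each line. The log2 difference between the lines was 0.20 (SE 0.32, interval -0.51 to 0.90).

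*Axin2* (chromosome 11: 108781663 to 108812097), a scaffold of the destruction complex and a widely used readout of β-catenin activity, had 726, 571 and 419 normalised counts in EVX1-Δfs and 765, 625 and 585 in 'Del#3'. 'Del#3' was the higher library in all 3 same-numbered pairs, by 0.076, 0.13 and 0.48 on the log2 scale, as it was for 12.1% of all genes tested. The lines overlapped and the log2 difference was 0.23 (SE 0.27, interval -0.36 to 0.82).

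*Sp5* (chromosome 2: 70312980 to 70315786) had 888, 1075 and 694 normalised counts in EVX1-Δfs and 911, 1026 and 911 in 'Del#3'. Replicate 2 was the highest library of each line. The log2 difference was 0.12 (SE 0.24, interval -0.41 to 0.65).

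*Sp8* (chromosome 12: 120084802 to 120091051), the zinc finger relative of *Sp5*, had 66.7, 82.0 and 81.5 normalised counts in EVX1-Δfs and 64.6, 52.3 and 64.1 in 'Del#3'. It was the only one of the 10 genes in which the lines did not overlap, and 'Del#3' lay below EVX1-Δfs. Of all genes tested, 1.8% had non-overlapping lines with 'Del#3' lower, 1.71% with 'Del#3' higher and 3.51% in either direction. The gap was small, since EVX1-Δfs replicate 1 and 'Del#3' replicate 1 differed by only -0.046 on the log2 scale. The log2 difference was -0.34 (SE 0.31, interval -1.04 to 0.35). Two-sided exact permutation tests cannot go below p = 0.1 for 3 against 3 libraries or 0.25 for 3 pairs, so neither could pass 0.05 here. Of the 7 pluripotency markers 5 had a lower and 2 a higher mean log2 value in 'Del#3', with none called, 1 at an unadjusted p under 0.05 and 2 with the replicate block (limma). Their summed level overlapped between the lines, at 160.1 to 223 RPM in EVX1-Δfs and 151 to 239 RPM in 'Del#3'. Most of that sum was *Tbx3*, 1 of the 2 higher in 'Del#3', with 2572, 1243 and 953 reads in EVX1-Δfs and 2259, 1131 and 1894 in 'Del#3'. The overlap thus describes *Tbx3* more than the list, and a sum without it was not computed. The lines did not overlap for 2 of the 7 markers, *Zfp42* and *Nr0b1*, with log2 differences of -0.82 (SE 0.28) and -0.84 (SE 0.39), nor for 1 of 6 definitive endoderm markers, *Sox17* (-0.35), all lower in 'Del#3'. Their part in the *Sp8* values was not tested.

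*Lef1* (chromosome 3: 130813389 to 130927274), a nuclear partner of β-catenin that is itself a target, had 432, 466 and 204 normalised counts in EVX1-Δfs and 442, 255 and 609 in 'Del#3'. The lowest EVX1-Δfs library and the highest 'Del#3' library were both replicate 3, so that the same-numbered differences were 0.033, -0.87 and 1.57 on the log2 scale. Same-numbered pairs of opposite sign that both exceeded 0.5 were seen in 11.6% of all genes tested. The log2 difference between the lines was 0.25 (SE 0.40, interval -0.63 to 1.12), the widest interval of the 9 genes.

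*Dkk1* (chromosome 19: 30620353 to 30624155), a secreted antagonist that binds the LRP co-receptors, had 409.8, 298 and 320.2 normalised counts in EVX1-Δfs and 261, 268 and 303 in 'Del#3'. 'Del#3' was the lower library in all 3 same-numbered pairs, by -0.65, -0.15 and -0.078 on the log2 scale, as for *Sp8* and for 11% of all genes tested. The lines overlapped in a narrow band, because EVX1-Δfs replicate 2 lay below 'Del#3' replicate 3. The log2 difference was -0.29 (SE 0.25, interval -0.85 to 0.26).

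**Figure D2:**
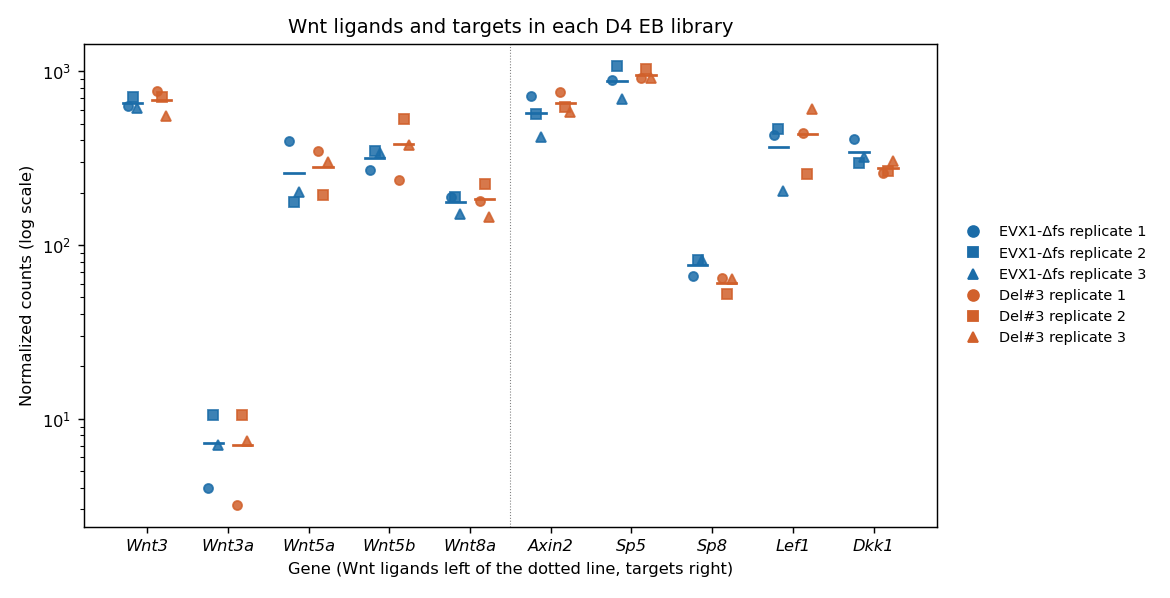
Normalised counts of the 10 genes on a log axis, with 1 point per library, its colour giving the line and its shape the replicate number, and a bar at the mean of each line. The lines separate, by a narrow margin, for *Sp8* alone, and replicate 3 holds the lowest EVX1-Δfs and the highest 'Del#3' value of *Lef1*.

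The intervals bound how large a difference could have gone unseen. For 7 of the 9 genes both ends of the 95% interval were smaller than a 2-fold change, the exceptions being *Sp8* and *Lef1*, and this was so for 61.1% of all genes tested. With the replicate block it was so for 8 of the 9 genes, *Lef1* being the exception (interval -0.64 to 1.13), and for 76.2% of all genes.

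**Figure D3:**
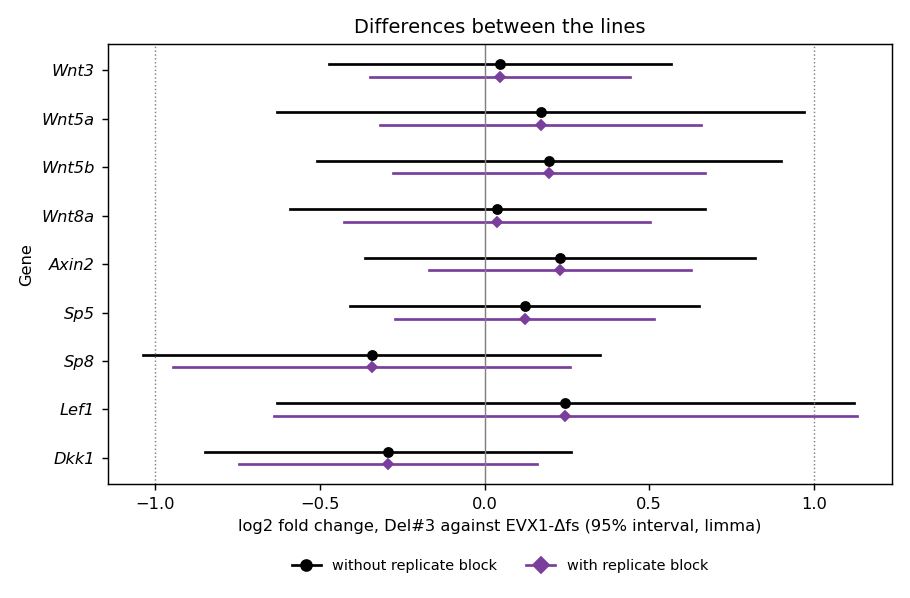
Log2 difference, 'Del#3' minus EVX1-Δfs, of the 9 tested genes, with a point for the estimate and a bar for its 95% interval from the fit without and with the replicate block. Every interval spans 0, and that of *Lef1* reaches beyond a 2-fold change in both fits.

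Replicate number, which is taken to mark the day of set-up, had a larger share of the spread than line did in 8 of the 10 genes. Day, depth and the length trend described below go together with this number and cannot be told apart. For each gene the sum of squares over the 6 libraries was divided between line, replicate number and the rest, which have 1, 2 and 2 degrees of freedom. Across all genes tested the median share was 6.70% for line and 64.4% for replicate number. *Wnt8a* (86.5%), *Wnt5a* (83.8%), *Wnt5b* (74.1%), *Axin2* (73.3%), *Wnt3* (67.3%) and *Sp5* (66.9%) had shares for replicate number that were close to or above that median. *Sp8* and *Dkk1* had more between lines, 60.7% and 47.4%, than between replicate numbers, 8.87% and 16.8%. *Wnt3a* had 98.3% between replicate numbers, on 4 to 9 reads per library. *Lef1* had 86.9% in neither, which is the crossing of its replicates described above and depends on the pairing by number.

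None of the 9 genes passed a moderated F-test of replicate number at an adjusted p under 0.05 (limma), which 4.24% of all genes did. *Wnt5a* and *Wnt5b* had unadjusted p values of 0.0142 and 0.0418 (adjusted 0.106 and 0.165), and 27.7% of all genes had an unadjusted p under 0.05. In the contrast of replicate 1 against replicate 2, which called 12.3% of all genes, 8.96% higher and 3.37% lower in replicate 1, while the other two contrasts called 0 genes (limma), *Wnt5a* was higher in replicate 1 by 0.99 on the log2 scale (SE 0.26, adjusted p = 0.0436, limma), in both lines. *Wnt5b* differed by -0.77 (SE 0.25, adjusted p = 0.0774) and was not called. The ratio of *Wnt5b* to *Wnt5a* reads was 0.675, 1.97 and 1.69 in EVX1-Δfs and 0.689, 2.74 and 1.26 in 'Del#3'. In both lines *Wnt5a* reads thus outnumbered *Wnt5b* reads in replicate 1, and *Wnt5b* reads were the more numerous in replicates 2 and 3.

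Differences between replicates 1 and 2 varied with transcript length across all genes. When the genes were divided into 5 classes of about equal size by exon length, the shortest class had a median of -0.28 for replicate 1 minus replicate 2, and the longest class, which holds *Wnt5a* with 7822 bases, a median of 0.40. *Wnt5b*, with 2625 bases, was in the class next to the shortest, where the median was -0.094. After a correction for exon length in that contrast *Wnt5a* still differed by 0.69 but was no longer called (adjusted p = 0.101, limma), and *Wnt5b* differed by -0.67 (adjusted p = 0.0870). The *Wnt5a* call was also lost without replicate 1 or 2 of EVX1-Δfs (log2 differences 0.72 and 1.02) and without replicate 1 or 2 of 'Del#3' (1.27 and 0.97). In these fits 1 side of the contrast is 1 library, so its spread comes from the other libraries. *Wnt5b* ranged from -1.08 to -0.46 without 1 library. Where replicates 1 and 2 both kept their 2 libraries, it was called without EVX1-Δfs replicate 3 (adjusted p = 0.0309, limma) and without 'Del#3' replicate 3 (0.0305).

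**Figure D4:**
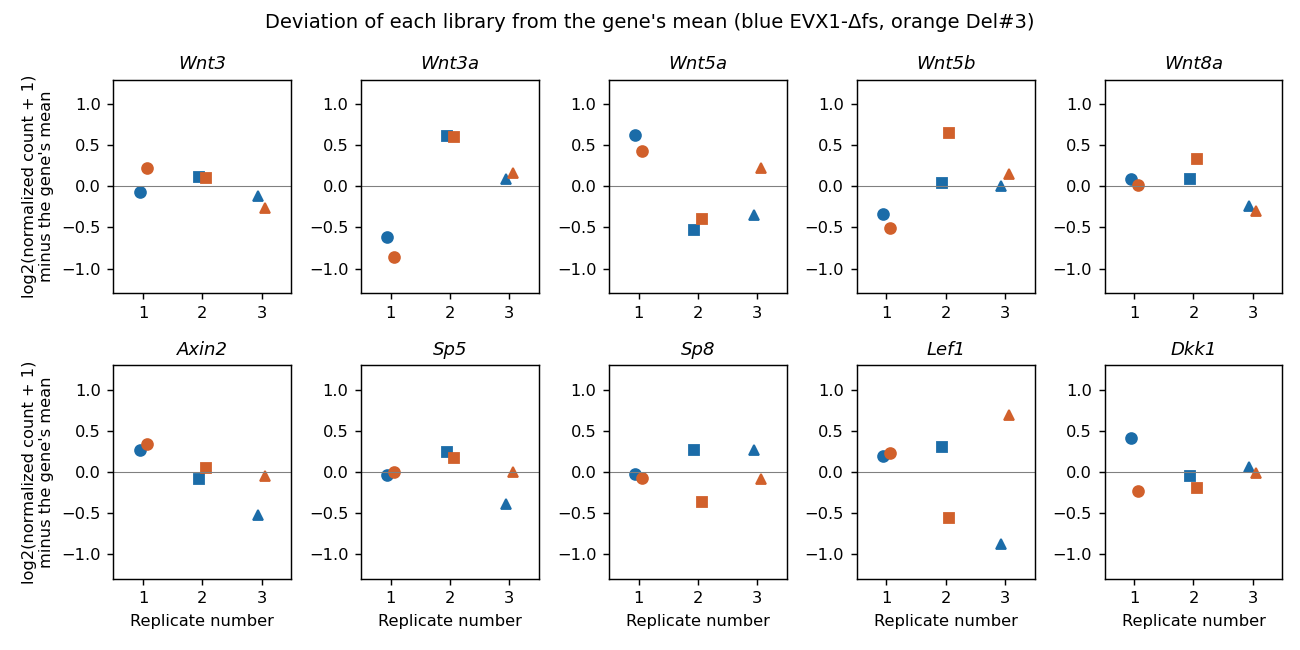
Log2(normalised count + 1) of the 10 genes in the 6 libraries, each minus the gene's own mean, by replicate number, with EVX1-Δfs in blue and 'Del#3' in orange. *Wnt5a* is highest and *Wnt5b* lowest in replicate 1 of both lines, whereas the points of *Lef1* lie farthest apart at replicate 3, by 1.57 on the log2 scale.

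As a description of which genes followed the same course over the 6 libraries, 9123 genes with a mean of at least 100 normalised counts were ranked by Pearson's r, with libraries sharing days and depth. *Axin2* was most like *Pabpc4* (r = 0.997) and next *Axin1*, its paralogue in the destruction complex (r = 0.995). *Wnt5a* was most like *Actr2* (r = 0.998), *Wnt5b* like *Psmd9* (r = 0.996), *Sp5* like *Helz2* (r = 0.995) and *Lef1* like *Arhgap17* (r = 0.999). Between *Wnt5a* and *Wnt5b* r was -0.68, between *Wnt3* and *Wnt8a* 0.71 and between *Axin2* and *Sp5* 0.55. No such value is read as a relation, since the best of 9123 genes is high over 6 points.

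Of 93 other genes of Wnt signalling, 79 were tested and none was called between the lines, with none at an unadjusted p under 0.05 (limma). With the replicate block none was called and 2 had an unadjusted p under 0.05, *Sfrp1* and *Apc*, against 4.62% of all genes. Their median log2 difference was 0.062, against 0.0022 for all genes tested, and 49 were higher and 30 lower in 'Del#3'. In 1 of the 79 the lines did not overlap, no larger a share than the 3.51% of all genes, and this was *Wnt9a*, named after its values were seen, with 13.2, 16.4 and 10.6 normalised counts in EVX1-Δfs and 23.9, 22.1 and 18.2 in 'Del#3' (log2 difference 0.65, SE 0.42).

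Upstream of the receptor, *Wnt2* had the highest mean of the other ligands, though it was the highest in only 2 of 6 libraries (4.16 ± 0.818 RPKM, log2 difference 0.062, SE 0.33), and *Wls*, which carries Wnt proteins to the cell surface, the higher of the ligand processing genes (50.1 ± 10.8 RPKM, log2 difference -0.11, SE 0.27). *Ryk*, an atypical receptor, was the most abundant receptor with a usable length (41.1 ± 7.60 RPKM, log2 difference -0.14, SE 0.28). *Rspo3*, a secreted enhancer of Wnt signalling, had the highest mean of the R-spondins and their receptors (8.09 ± 4.96 RPKM, log2 difference -0.034, SE 0.60) and was the highest in 4 of 6 libraries. *Cer1*, which the study counts among antagonists of the WNT pathway, was the highest of the secreted antagonists (109 ± 16.4 RPKM, log2 difference -0.28, SE 0.24). The 95% interval of each of these differences spanned 0, although *Cer1* was lower in 'Del#3' in all 3 same-numbered pairs, as 11% of all genes were.

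Inside the cell *Ctnnb1*, which encodes β-catenin, was the most abundant of the transduction genes at 253 ± 50.6 RPKM (log2 difference -0.21, SE 0.29), and was lower in 'Del#3' in all 3 same-numbered pairs, as 11% of all genes were. Of the nuclear partners *Tcf7* had the highest mean, at 33.6 ± 11.5 RPKM (log2 difference 0.28, SE 0.33), but *Pygo2* (31.8 ± 4.24 RPKM) overlapped it and *Tcf7* led in only 3 of 6 libraries. Of the other targets *Ccnd1*, encoding cyclin D1, was the highest at 66.1 ± 7.04 RPKM (log2 difference 0.15, SE 0.22). *Vangl1* led the planar polarity genes (15.9 ± 1.59 RPKM, log2 difference 0.027, SE 0.24). The 11 nuclear partners had the highest median log2 difference of the lists of other Wnt genes, 0.28, with 8 of 11 higher in 'Del#3' and none called. For most of them, but not all, EVX1-Δfs replicate 3 was the lowest library of its line, as for *Tcf7* (1199, 997 and 516 normalised counts). The list's median without that library was not computed. Of these 11 genes 5 are in the longest exon length class, in which the median line difference of all genes was 0.12, against -0.11 in the shortest class, and its part in the list's median was not tested. By replicate number 1 of the 79 genes passed the F-test, *Apc*, a scaffold of the destruction complex (adjusted p = 0.0225, limma), against 4.24% of all genes. *Apc* had 303, 58.6 and 91.0 normalised counts in EVX1-Δfs and 749, 157 and 139 in 'Del#3'. Its exons span 15750 bases, which puts it in the longest class. *Apc* was higher in replicate 1 than in replicate 2 by 2.30 on the log2 scale (SE 0.28). It also had the largest line difference of the 79 genes, 1.10 (SE 0.70, adjusted p = 1.00, limma), with 'Del#3' higher in all 3 same-numbered pairs, as in 12.1% of all genes.

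**Figure D5:**
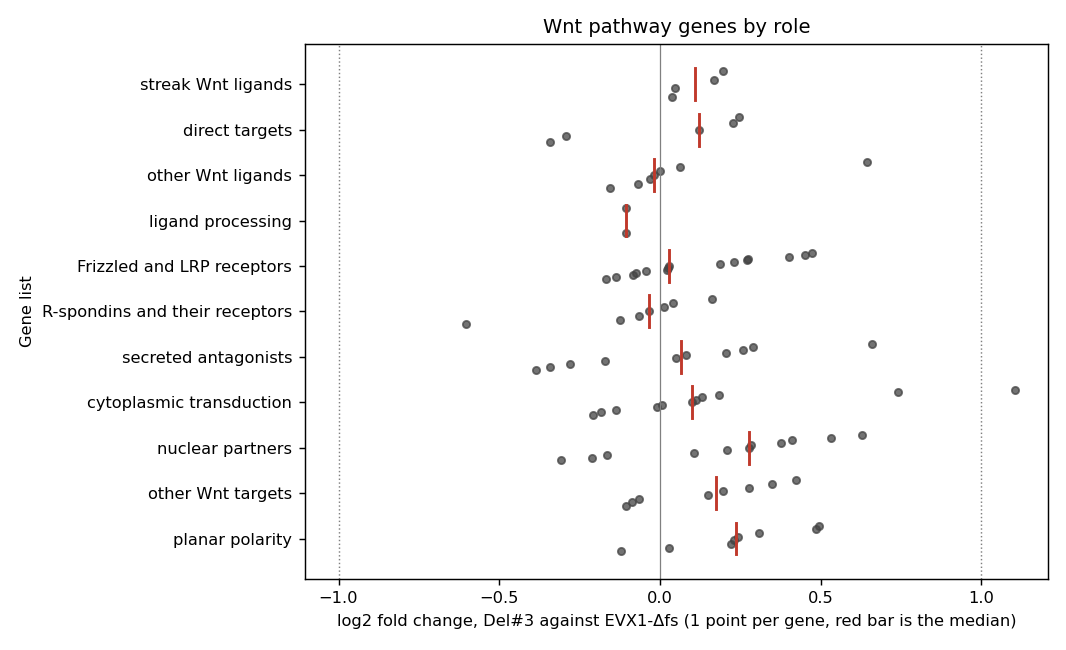
Log2 difference, 'Del#3' minus EVX1-Δfs, of every tested gene of each Wnt list, with 1 point per gene, a red bar at the list's median and dotted lines at a 2-fold change. The list medians lie between -0.10 for ligand processing and 0.28 for the nuclear partners.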

How the data were processed

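The 6 libraries were poly(A)-selected and sequenced on the Ion Proton. Per the labels and the methods, the authors aligned reads to mm9 by TopHat2 followed by TMAP, and obtained counts per gene from HTSeq. Versions are not given in the sources used here. The deposited values are a normalised signal, gene counts divided by a size factor per library. Of these values 100% were whole multiples of their library's step (tolerance 0.001 reads), and whole reads were recovered from these steps.

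The main test was limma 3.58.1 with an intensity trend on log2(value + 1), over genes passing the filterByExpr function of edgeR 4.0.16 (minimum count 10, R 4.3.3), with Benjamini-Hochberg adjustment, and an adjusted p under 0.05 was called. Fold changes are on the log2(value + 1) scale and understate those of low genes. edgeR and DESeq2 1.42.0 on recovered reads called 2 and 3 genes. RPKM used exon lengths from GENCODE on NCBIM37 and the reads of all listed genes. The F-test of replicate number was adjusted for line. Coordinates are from that annotation, and promoter sequences from RefSeq. Fits were also run on simulated counts in which only a set of genes was changed. No day or length trend across the other genes was simulated, so that run does not cover the trends seen here.

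The series text gives each numbered set its own day, so the replicate numbers are taken to pair the samples. Deviations from the line means correlated by 0.735, 0.323 and -0.0457 between libraries numbered 1, 2 and 3, and by -0.659 to 0.413 between libraries of different number, so the pairing rests on the stated days. Separate cultures are stated, but each line is a single cell line, so p-values measure the spread between its cultures. Read counts carry no molecular identifiers. Genes named besides the 10 were those past a test, the highest of each list and up to 3 most alike per gene. *Wnt9a*, *Sfrp1*, *Zfp42*, *Nr0b1*, *Tbx3*, *Sox17*, *Pygo2* and the genes ranked beside *Wnt5a* were named after their values were seen. The 10 genes, the lists and the tests were chosen with earlier results of these data known. Alternatives tried were other pseudocounts, scalings, filters and tools, the replicate block, leaving out each library, transcript length and, chosen after seeing the data, an exon length correction for 94.1% of tested genes.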

Additional observations from a re-analysis of the deposited data

Results flagged for a closer look

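*Lef1* had opposite differences between the lines in 2 same-numbered pairs. 'Del#3' minus EVX1-Δfs was -0.87 on the log2 scale in replicate 2 and 1.57 in replicate 3, which are 2.44 apart, and 0.033 in replicate 1. With 1 library of each line per number the difference between pairs was not tested. The pairing rests on the replicate numbers, and over all genes EVX1-Δfs replicate 3 deviated with 'Del#3' replicate 2 (r = 0.413) more than with 'Del#3' replicate 3 (r = -0.0457). For EVX1-Δfs replicate 2 these values were 0.323 and 0.244. If numbers 2 and 3 were exchanged in 1 line, *Lef1* at 466 would pair with 609 and 204 with 255 normalised counts. 'Del#3' would then be the higher library in every pair, so the opposite signs depend on the numbering. Of the genes tested, 11.6% had such a pair of opposite differences over 0.5.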

How the results depend on the processing

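Over 19 alternatives none of the 171 fits of the 9 genes called a difference between the lines. The count of genes called between lines was 2, without each library as well (2 to 2), 3 by limma or edgeR with the replicate block, and 9 by DESeq2 with it. The replicate block changed no call of the 9 genes. Leaving out each library in turn turned the sign of uncalled line differences, with log2 ranges of -0.051 to 0.19 for *Wnt3*, -0.054 to 0.53 for *Wnt5a*, -0.082 to 0.50 for *Wnt5b*, -0.12 to 0.20 for *Wnt8a*, -0.043 to 0.27 for *Sp5* and -0.13 to 0.58 for *Lef1*, while the sign held for *Axin2* (0.023 without EVX1-Δfs replicate 3 to 0.42), *Sp8* (-0.44 to -0.24) and *Dkk1* (-0.39 to -0.16). The exon length correction moved the uncalled line differences of *Wnt3* from 0.047 to 0.077, *Wnt5a* from 0.17 to 0.078, *Wnt8a* from 0.038 to 0.12, *Sp5* from 0.12 to 0.18 and *Lef1* from 0.25 to 0.14. The 546 genes called by replicate number became 347 with TMM factors, 317 with total reads, 1298 by DESeq2, 170 with the exon length correction and 197 to 3175 without 1 library, the lowest without EVX1-Δfs replicate 1 and the highest without 'Del#3' replicate 3. The 1590 called between replicates 1 and 2 became 421 to 3320 without those same libraries. *Wnt5a* in that contrast was 0.69 with the exon length correction and 0.72 to 1.27 without 1 library. Between days the largest uncalled differences changed sign for *Sp8* (-0.36 to 0.083), *Lef1* (-0.50 to 1.17) and *Dkk1* (-0.059 to 0.48) without 1 library and for *Lef1* (-0.011) with the exon length correction, and the F-test (limma) was passed by *Lef1* without 'Del#3' replicate 3 (adjusted p = 0.0218), by *Wnt5a* without replicate 3 of EVX1-Δfs or of 'Del#3' (0.0184 and 0.0121) and by *Wnt5b* without EVX1-Δfs replicate 2 (0.0492). The causes were not tested. Depth limits *Wnt3a*, at 4 to 9 reads.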
